A study of Homo sapiens with 4 samples.

Results

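The 7 genes described here, FAF2, AUP1, SEL1L, DERL2, NPLOC4, SEC61A1 and SAR1B, encode proteins that carry polypeptides into, out of and away from the endoplasmic reticulum (ER), the compartment in which secreted and membrane proteins fold. They were taken by gene symbol from 14884 genes with a named probe set on the array, of which 11883 were bright enough to be tested. Each of the 7 has 1 named probe set, and all 7 passed the filter on dim genes. They were chosen by their measured change between the groups: in earlier results of the same arrays they stood higher after origamicin. The size of that difference is therefore described here without a test of it.

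The arrays were Affymetrix Human Gene 2.0 ST arrays hybridised with RNA from SH-SY5Y, an adherent human neuroblastoma cell line. Origamicin, which the submitters describe as an inhibitor of protein disulfide isomerase (the enzyme family that forms and rearranges disulfide bonds in the ER), was given at 30 µM for 24 h and read on 2 arrays. Mock cells received methanol, the solvent, for the same 24 h and were read on the other 2 arrays. The labels call both arrays of a group biological replicates without naming separate cultures or days, so errors cover only the spread between these arrays, which may be technical.

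ER-associated degradation removes proteins that fail to fold. A membrane-bound ubiquitin ligase complex recognises the failed protein, moves it across the ER membrane and marks it with ubiquitin, and the ATPase p97 (encoded by VCP) pulls it into the cytosol for the proteasome. Newly made proteins enter the ER through the SEC61 channel and leave it in vesicles coated with COPII. Many genes of these routes are known targets of the unfolded protein response, the set of signalling arms that is switched on when unfolded proteins accumulate in the ER.

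The stretches just before the annotated start of 3 of the genes are shown because they differ in the motifs on which unfolded protein response factors and their partners are known to act. SEL1L held the most CCAAT boxes of the 7 genes. FAF2 changed more than NPLOC4, the other of the 7 at the p97 step, and SAR1B had the largest change of all 7. The sequences are from RefSeq, build GRCh38.p14, written 5′ to 3′ on the gene's strand. Capitals mark CCAAT or CCACG read on either strand and the antioxidant response core TGACNNNGC.

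SEL1L, chr14:81533854-81534103, minus strand: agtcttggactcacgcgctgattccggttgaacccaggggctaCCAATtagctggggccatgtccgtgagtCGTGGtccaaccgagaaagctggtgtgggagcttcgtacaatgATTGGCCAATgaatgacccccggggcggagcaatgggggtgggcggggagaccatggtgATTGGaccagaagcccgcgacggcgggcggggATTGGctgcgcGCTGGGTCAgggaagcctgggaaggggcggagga
FAF2, chr5:176448135-176448384, plus strand: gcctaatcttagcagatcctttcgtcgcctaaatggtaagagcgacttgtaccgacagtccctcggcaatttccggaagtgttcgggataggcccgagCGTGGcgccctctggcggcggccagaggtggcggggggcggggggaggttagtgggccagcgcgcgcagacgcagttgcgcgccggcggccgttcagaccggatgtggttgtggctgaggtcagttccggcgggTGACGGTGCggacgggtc
SAR1B, chr5:134632829-134633078, minus strand: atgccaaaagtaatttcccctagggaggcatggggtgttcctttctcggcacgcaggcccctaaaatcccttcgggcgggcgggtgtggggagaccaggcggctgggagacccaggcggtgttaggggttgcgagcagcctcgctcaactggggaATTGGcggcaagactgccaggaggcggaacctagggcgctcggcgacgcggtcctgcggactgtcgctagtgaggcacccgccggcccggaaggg

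RefSeq promoter windows, which run from 250 bases before to 50 bases after a transcript start, matched all 7 genes, with 9 windows in all. The complete ER stress response element (CCAAT, 9 bases of any kind, CCACG) was found in 0 of the 9 windows on either strand, against 0.0769% of all 35116 windows. The element ERSE-II (ATTGG, any base, CCACG) was also in 0 of them, against 0.0541%, and so was the UPRE sequence TGACGTGG, against 0.729%. The shorter CCACG was commoner: 6 of the 7 genes had it, DERL2 being the exception. It lay in 6 of the 9 windows, against 38.1% of all windows. In SAR1B it lies after the start and is not shown. The CCAAT box lay in 4 of the 9 windows, those of SEL1L, DERL2 and SAR1B and 1 of NPLOC4, against 34.6% of all windows. SEL1L had 5 such boxes, 2 of them side by side in the palindrome shown above, and 0.359% of all windows held at least as many. TGACNNNGC was found in 2 of the 9 windows, those of FAF2 and SEL1L, and in 13.3% of all windows. These are matches of letters in a short window. The windows of DERL2 and NPLOC4 and 1 of the 2 of SEC61A1 lie inside the gene as annotated, since a longer transcript starts farther out.

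On every origamicin array, each of the 7 genes stood higher than on either mock array. The median change was 0.22 on the log2 scale, against -0.01 over all genes tested, and the single changes ran from 0.14 (DERL2) to 0.24 (SAR1B), which is 1.10-fold to 1.18-fold. Of all genes tested, 47.8% had a change above 0, and 22.7% had groups separated in this way in the higher direction. Because the contrast itself chose the genes, nothing is read from the count of 7 members. Levels below are log2 expression as deposited, and each change is origamicin minus mock with its moderated standard error (SE) from limma over 2 arrays per group.

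**Figure D1:**
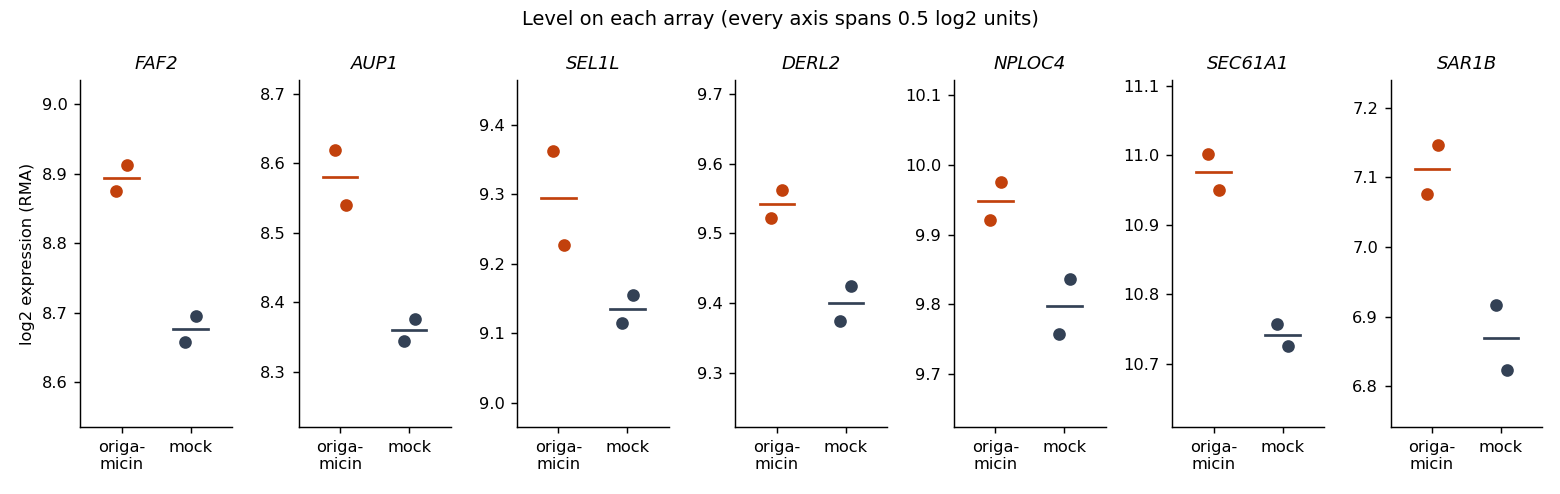
Deposited log2 expression of the 7 genes on each array, origamicin left and mock right in each panel, points for arrays and bars for the means of 2 arrays. Each panel has its own range of equal length. In every panel both origamicin points lie above both mock points, with the narrowest gap in SEL1L (0.07) and the widest in SEC61A1 (0.19).

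Among the genes of the ubiquitin ligase complex, SEL1L encodes the adaptor that holds and steadies the ligase HRD1 and hands substrates to it. SEL1L read 9.36 and 9.23 in origamicin cells, against 9.12 and 9.16 in mock cells. Its origamicin arrays lay 0.14 apart, the widest spacing of the 7 genes within a group, and the lower of them was 0.07 above the higher mock array. The change was 0.16 ± 0.08, with a 95% interval from -0.05 to 0.37, and it was 0.09 without origamicin replicate 1.

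DERL2 encodes derlin-2, a member of the rhomboid-like family that helps substrates back across the membrane. DERL2 read 9.52 and 9.56 in origamicin cells and 9.37 and 9.42 in mock cells, so the arrays of each group lay close together and the gap between groups was 0.10. Its change of 0.14 ± 0.07 (95% interval -0.03 to 0.32) was the smallest of the 7.

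AUP1 sits in the ER membrane and on lipid droplets and recruits the ubiquitin-conjugating enzyme UBE2G2 to the ligases. AUP1 read 8.62 and 8.54 in origamicin cells, against 8.34 and 8.38 in mock cells. The groups were separated by 0.16, and the change was 0.22 ± 0.07 (95% interval 0.04 to 0.40).

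Both genes of the p97 step were higher too. FAF2 (also called UBXD8) encodes a membrane-anchored UBX-domain protein that brings p97 to the ER and to lipid droplets. FAF2 read 8.87 and 8.91 in origamicin cells and 8.66 and 8.70 in mock cells. Spacing within each group was 0.04, and the change was 0.22 ± 0.06 (95% interval 0.05 to 0.39).

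NPLOC4 encodes a cofactor that, paired with UFD1, lets p97 engage ubiquitin chains. NPLOC4 read 9.92 and 9.98 in origamicin cells, against 9.76 and 9.84 in mock cells. Its groups were 0.09 apart, about as far as the 2 mock arrays were from each other (0.08), and its change was 0.15 ± 0.07 (95% interval -0.03 to 0.34).

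SEC61A1 encodes the pore-forming subunit of the SEC61 channel, through which new proteins enter the ER. SEC61A1 read 11.00 and 10.95 in origamicin cells and 10.76 and 10.73 in mock cells. Its gap of 0.19 between the groups was the widest of the 7, and its change was 0.23 ± 0.06 (95% interval 0.06 to 0.41).

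SAR1B encodes the small GTPase that starts assembly of the COPII coat at ER exit sites and is needed in the human gut for export of chylomicrons. SAR1B read 7.08 and 7.15 in origamicin cells, against 6.92 and 6.82 in mock cells. The change of 0.24 ± 0.07 (95% interval 0.05 to 0.44) was the largest of the 7, with a gap of 0.16 between the groups. In order of change the genes ran SAR1B, SEC61A1, AUP1, FAF2, SEL1L, NPLOC4 and DERL2, and no neighbours in this order differed by more than their SE.

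Changes of this size were not rare on these arrays. Of all genes tested, 7.98% were higher by at least as much as SAR1B, 9.81% by at least as much as FAF2 and 17.9% by at least as much as DERL2. The median absolute difference between replicates of the 7 genes was 0.05 for the origamicin arrays and 0.04 for the mock arrays, against 0.10 and 0.09 over all genes. Choosing genes by a contrast between the groups can favour a small spread, so nothing is read from this. The 7 did not share a replicate order. Replicate 2 exceeded replicate 1 for 4 of the 7 in origamicin cells and for 5 of the 7 in mock cells, where 50.1% and 52.6% of all genes did so.

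**Figure D2:**
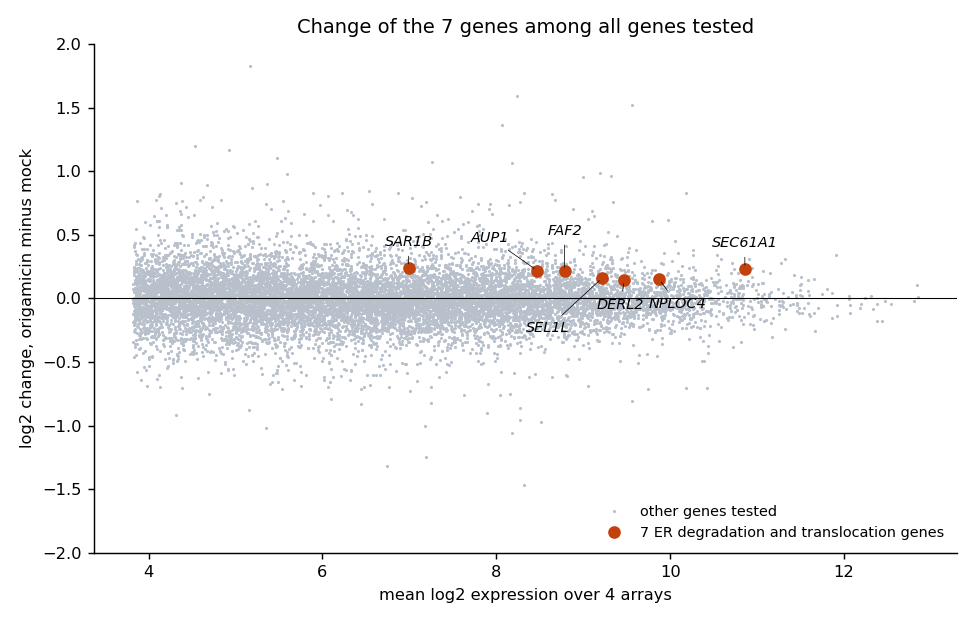
Log2 change (origamicin minus mock) of the 11883 genes tested, plotted against their mean log2 expression over 4 arrays, with the 7 genes as large labelled points. The 7 lie between 0.14 and 0.24, in the upper part of a cloud that narrows toward brighter genes.

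Paralogs of the same families gave different values. SEC61A2, the second form of the channel's pore-forming subunit, read 7.93 and 7.82 in origamicin cells, against 8.08 and 8.15 in mock cells. Its change of -0.24 ± 0.07 was opposite in sign to that of SEC61A1 and about equal in size (unadjusted p = 0.028 and adjusted p = 0.25 in limma). SAR1A, the close relative of SAR1B in the COPII coat, read 9.36 and 9.39 in origamicin cells and 9.37 and 9.39 in mock cells, a change of -0.0028 ± 0.062 with a 95% interval from -0.17 to 0.16.

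DERL1 stood at -0.01 ± 0.06 and DERL3 at 0.07 ± 0.10, beside 0.14 for DERL2. FAF1, a soluble p97 adaptor related to FAF2, stood at 0.03 ± 0.08. Leaving out 1 array turned the sign of DERL1, SAR1A, DERL3 (-0.06 without origamicin replicate 2, 0.19 without origamicin replicate 1) and FAF1 (-0.04 without mock replicate 1), so these 4 have no settled direction. SEL1L3 differed most, reading 5.00 and 5.00 in origamicin cells, against 4.56 and 4.31 in mock cells (change 0.57 ± 0.11, unadjusted p = 0.0041, adjusted p = 0.17 in limma). It is dim, and SEL1L2 was left out as below the filter. Differences between a gene and its paralog were not tested, because 1 side of each was chosen for its change. The most unlike pair was SEC61A1 and SEC61A2, whose changes lay 0.47 apart.

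**Figure D3:**
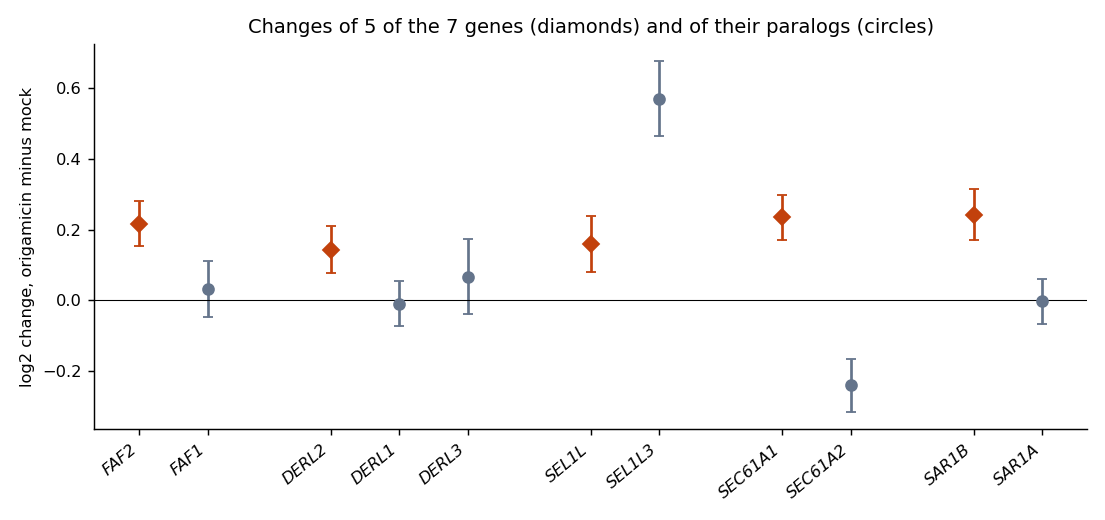
Log2 change (origamicin minus mock) of 5 of the 7 genes, as diamonds, each followed by its tested paralogs, as circles, with bars of 1 moderated SE over 2 arrays per group. SEC61A2 lies as far below 0 (-0.24) as SEC61A1 lies above it (0.23), while SAR1A, DERL1 and FAF1 lie near 0.

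Direct partners of the 7, chosen here after their values were seen, had changes from -0.06 (UBE2G2) to 0.13 (PREB). The ATPase VCP read 10.55 and 10.61 in origamicin cells, against 10.41 and 10.50 in mock cells, a change of 0.13 ± 0.07 without overlap (0.08 without mock replicate 1). UFD1, with which NPLOC4 forms a heterodimer, stood at 0.11 ± 0.09 with overlapping groups. UBE2G2, which AUP1 recruits, stood at -0.06 ± 0.06, lower without overlap (7.04 and 7.10 in origamicin cells, against 7.11 and 7.14 in mock cells), and SEC61B, the small subunit beside SEC61A1, at -0.0057 ± 0.072 with overlapping groups. PREB, the exchange factor that loads SAR1 proteins with GTP, stood at 0.13 ± 0.06 without overlap.

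The rest of the machinery was followed through 5 lists of other genes of the same routes, with the 7 left out. Of 165 genes listed together, 120 had a named probe set and 118 were tested. Counts and medians cover only the tested genes and say nothing of the others. Their median change was 0.03, against -0.01 over all genes tested, with 71 higher and 47 lower. In limma 0 of the 118 genes passed an adjusted p of 0.05, as did 0 of all genes tested (0%). At an unadjusted p under 0.05 there were 10, or 8.47% (3 higher, 7 lower), against 16.4% of all genes (7.99% higher and 8.42% lower). There were fewer when any 1 array was left out, as there were over all genes. When limma was run with an intensity trend in the spread, 1 was higher and 1 lower at an adjusted p of 0.05, against 4.3% of all genes (2.14% higher and 2.16% lower). Groups did not overlap for 40 of the 118 in the higher direction (33.9%, against 22.7% of all genes) and for 25 in the lower direction, against 25.8%.

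Ubiquitin ligases and their partners went both ways, with 8 of 17 tested genes higher and a median of -0.01. RNF145, a sterol-regulated ER ligase, was higher at an adjusted p of 0.035 with an intensity trend: it read 9.52 and 9.54 in origamicin cells, against 9.30 and 9.30 in mock cells (change 0.23 ± 0.06, unadjusted p = 0.016 in limma without the trend). Lower at an unadjusted p under 0.05 were the ligases TMEM129 (-0.31 ± 0.07, adjusted p = 0.19 in limma) and RNF139 (-0.31 ± 0.11, adjusted p = 0.28 in limma). Without origamicin replicate 1, RNF139 was at -0.20. RNF121 had the next smallest p on the higher side, at 0.18 ± 0.10, or 0.07 without mock replicate 1 and 0.29 without mock replicate 2. SYVN1, which encodes HRD1, was not analysed here.

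Of the 14 listed genes that read glycans on misfolded proteins, only 6 had a named probe set. OS9 and the EDEM genes were not among them. Of the 6 tested, 4 were higher, with a median of 0.06 and none past an unadjusted p of 0.05 in limma. The folding sensor UGGT1 stood at 0.11 ± 0.06 and the glycan-binding ligase subunit FBXO6 at 0.20 ± 0.13, or 0.03 without mock replicate 1 and 0.37 without mock replicate 2. On the other side stood the lectin gene ERLEC1 (-0.06 ± 0.10) and FBXO2 (-0.03 ± 0.10), neither with a settled sign: ERLEC1 was at 0.05 without origamicin replicate 1, and FBXO2 at 0.04 without mock replicate 2 and 0.07 without origamicin replicate 2.

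The p97 and delivery list had 17 of 27 genes higher and a median of 0.01. UBQLN2, a shuttle factor that takes ubiquitinated proteins to the proteasome, was lower at an adjusted p of 0.025 with an intensity trend. It read 9.15 and 9.18 in origamicin cells and 9.41 and 9.44 in mock cells (-0.27 ± 0.06, unadjusted p = 0.011 in limma without the trend). Its relative UBQLN4 was lower at an unadjusted p of 0.047 in limma (-0.21 ± 0.08), and the ER selenoprotein SELENOK was higher at an unadjusted p of 0.034 in limma (0.24 ± 0.08).

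For translocation into the ER, 23 of 39 genes were higher, with a median of 0.04. SPCS3, a subunit of the signal peptidase that trims proteins as they enter, read 9.47 and 9.46 in origamicin cells, against 9.27 and 9.27 in mock cells (0.19 ± 0.06, unadjusted p = 0.033 in limma). The signal peptidase catalytic subunit SEC11A stood at 0.16 ± 0.07. Lower were EMC9, a subunit of the ER membrane protein insertion complex (-0.26 ± 0.07, unadjusted p = 0.015 in limma), and SEC61A2. The third gene lower at an unadjusted p under 0.05 in limma was EMC10 of the same complex, named after its values were seen.

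COPII export had 19 of 29 tested genes higher and a median of 0.04, and no gene past an unadjusted p of 0.05 in limma. TRAPPC3, a subunit of a vesicle tethering complex, stood at 0.16 ± 0.06 and the Golgi SNARE STX5 at 0.20 ± 0.09 (0.13 without mock replicate 2). The inner coat subunit SEC23A stood at -0.15 ± 0.06 and the outer coat subunit SEC31B at -0.19 ± 0.07.

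**Figure D4:**
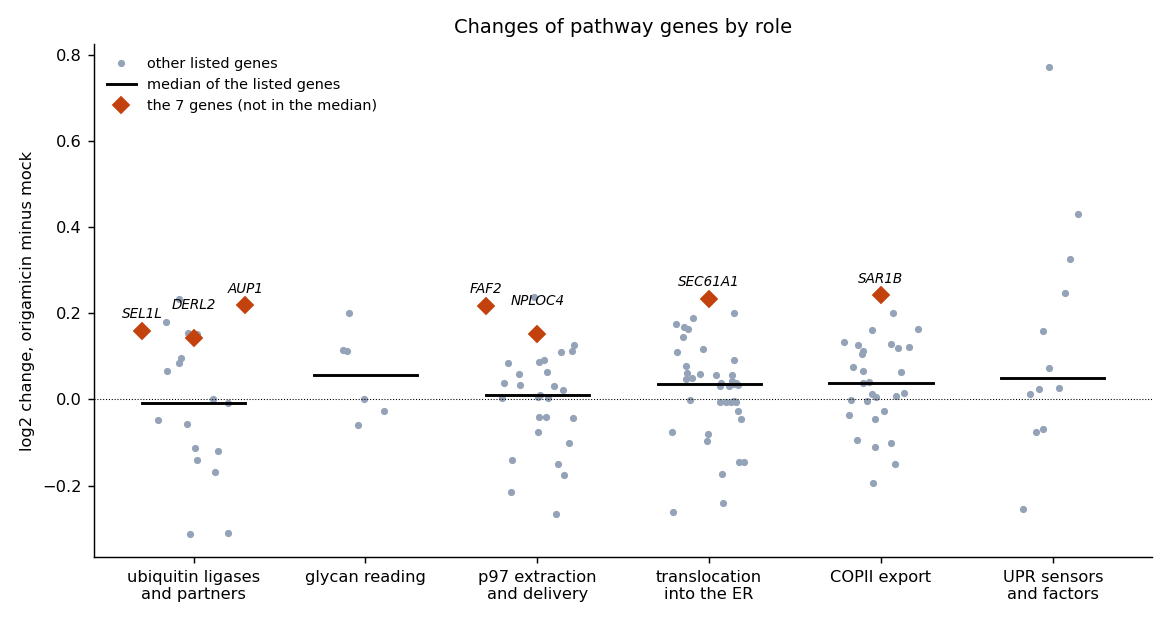
Log2 change (origamicin minus mock) of the tested genes of 6 lists, as grey points, with the list median as a bar and the 7 genes as labelled diamonds that are not part of the medians. List medians lie between -0.01 and 0.06, and single listed genes such as XBP1 (0.33) and EIF2AK3 (0.43) lie above all 7, which were themselves chosen for a high change.

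Genes that sense and relay unfolded proteins had 9 of 12 tested members higher, with a median of 0.05. In limma 0 passed an adjusted p of 0.05, as did 0 of all genes tested (0%). At an unadjusted p under 0.05 in limma 3 were higher (25%) and 0 lower, against 7.99% and 8.42% of all genes. Groups did not overlap for 6 in the higher direction (50%, against 22.7% of all genes) and for 2 in the lower direction, against 25.8%. EIF2AK3, which encodes the sensor kinase PERK, read 7.62 and 7.63 in origamicin cells, against 7.22 and 7.17 in mock cells. Its change of 0.43 ± 0.06 passed with an intensity trend (adjusted p = 0.018) and not without it (adjusted p = 0.15 in limma). XBP1, the transcription factor known to raise many degradation genes, read 8.33 and 8.30 in origamicin cells and 8.03 and 7.95 in mock cells. It too passed with an intensity trend in limma (adjusted p = 0.029). DDIT3, named after its values were seen, had the largest change of the list, 0.77 ± 0.26 (unadjusted p = 0.035, adjusted p = 0.27 in limma). DDIT3 is dim and read 4.90 and 5.55 in origamicin cells, against 4.26 and 4.64 in mock cells. CREB3L1 (-0.26 ± 0.18) and CREB3L4 (-0.07 ± 0.07), both membrane-bound transcription factors, were the lower members with the smallest p. When 1 array was left out, CREB3L1 ran from -0.48 (without mock replicate 1) to -0.03 (without mock replicate 2), so single arrays decided its value. CREB3L4 ran from -0.11 (without origamicin replicate 1) to -0.04 (without origamicin replicate 2).

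Several genes followed the same course over the 4 arrays as the average of the 7. The 5 nearest, by root mean square distance between profiles centred on their own means, were POPDC1 (0.0056 on the log2 scale), SKA1 (0.0060), SPCS3 (0.0067), ASTN1 (0.0068) and SCAF4 (0.0074). Their changes ran from 0.19 to 0.20, and SPCS3 was the one among them that belongs to the listed ER genes. With 4 arrays in 2 groups, likeness of this kind rests on the size of the change and on a close spacing of the arrays within each group.

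For markers of the cell line, all 14 named genes of the noradrenergic neuroblastoma list passed the filter. So did 11883 of the 14884 genes with a named probe set and all 5 named glial markers. Passing therefore does not show that a cell type is present. The mean log2 level of the 14 was 9.45 and 9.49 in origamicin cells, against 9.70 and 9.72 in mock cells. In origamicin cells 13 of the 14 were lower. Groups did not overlap for 10 of them in the lower direction, against 25.8% of all genes, and for 0 in the higher direction. Mesenchymal markers, known from the other cell form that such cultures can hold, were higher for 7 of 10, where 47.8% of all genes were higher. Their mean was 6.44 and 6.36 in origamicin cells and 6.22 and 6.16 in mock cells. Groups did not overlap for 4 of the 10 in the higher direction (40%, against 22.7% of all genes) and for 1 in the lower direction. Glial markers had a mean of 4.73 and 4.83 in origamicin cells, against 4.68 and 4.77 in mock cells. The part of these shifts in the changes of the 7 genes was not tested. In bulk RNA, fewer cells of a type and less RNA per cell cannot be told apart.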

How the data were processed

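The deposited values are log2 expression per probe set. Per the submitters' processing notes, the authors used RMA, which corrects background, makes the arrays' distributions equal and summarises probes, and limma. Neither their versions nor the genome build is given in the sources used here. Arrays have no counting depth, so their number (4) limits the precision. Array medians lay between 4.37 and 4.42, and nothing was normalized again.

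Of 53617 probe sets, 16098 had exactly 1 gene in the platform annotation, none had several and 37519 are unnamed here. Entrez identifiers matched RefSeq for all 16098. For 779 genes with several, the probe set with the highest mean was kept. Genes with a mean under the 40th percentile over probe sets (3.82) were left out. Over the 11883 genes left, arrays of a group correlated at r = 0.994 (origamicin) and 0.995 (mock), while pairs taken across groups correlated at 0.991 to 0.992.

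The comparison, origamicin minus mock, used limma 3.58.1 under R 4.3.3 with lmFit and eBayes (1 prior variance, no covariate, two-sided), Benjamini-Hochberg adjustment over 11883 genes and a threshold of 0.05. The fit was also run on simulated data with changes larger than those of the 7 genes, so it says nothing of changes of their size. The 7 genes, the lists and the tests were chosen with earlier results of these data known. Named genes were the 7, their paralogs, per list and direction the 2 with the smallest p, and the 5 nearest profiles. Lists were described by counts and medians. Protein identities of paralogs, planned in the design, were not computed. There were 12 alternatives: a replicate block, an intensity trend, robust eBayes, no filter, a 60th percentile filter, quantile normalization, equal array medians, averaging a gene's probe sets, and leaving out each array. Same-numbered arrays of the 2 groups did not deviate together (correlation of deviations -0.02 over genes).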

Additional observations from a re-analysis of the deposited data

How the results depend on the processing

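The direction of the 7 genes, fixed by how they were chosen, says nothing of stability, and 6 of the 12 alternatives leave their log2 changes as they are by construction. Over all 12 the changes ran from 0.09 to 0.23 for SEL1L, the widest range, and from 0.20 to 0.24 for FAF2, the narrowest. SEL1L stood at 0.09 without origamicin replicate 1, more than 1.5 times below its change over all arrays. The median change of the 7, 0.22 over all arrays, was 0.20 with equal array medians and 0.18 to 0.21 when 1 array was left out. Equal array medians move the log2 change of every gene by the same amount by construction. The cause of the shifts without 1 array was not tested. Over all genes, limma called 0 at an adjusted p of 0.05, 511 with an intensity trend and 92 with the 60th percentile filter. Leaving out 1 array gave 0 each time.

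Among the 118 other ER genes, 10 had an unadjusted p under 0.05 in limma, 23 with an intensity trend and 5 with the replicate block, which the labels do not show to pair the arrays and which leaves 1 residual degree of freedom. Without 1 array there were 1 to 5, the fewest without mock replicate 1, on fewer arrays each time. The count of these genes therefore depends on the model of the spread and on single arrays. The labels' replicate numbers do not show whether the samples are paired. With every replicate number in both groups, the block leaves each log2 change as it is by construction.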
